A study of Mus musculus with 4 samples.

Results

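Notch signalling in grafted mouse ovaries was described through 10 genes, the receptors Notch1, Notch2, Notch3 and Notch4, the ligands Jag1, Jag2, Dll1 and Dll4, and the target genes Hes1 and Hey1. They were taken by symbol from a table of read counts for 54021 gene symbols, and all 10 were found. The tissue was the reconstituted ovary (rOvary), an aggregate of primordial germ cells and gonadal somatic cells from E12.5 female fetuses that carried actin-GFP on a C57BL/6 background, grown under the kidney capsule of a host. The hosts were young adult G2 Terc−/− mice of C57BL/6 background, second-generation mice without the RNA component of telomerase, and their own ovaries had been removed on both sides. RNA-seq of polyA RNA was made from rOvaries collected 1 month after transplantation, with 2 libraries from hosts given INK128 (replicates 1 and 2) and 2 from hosts without it (Control replicates 1 and 3). INK128 inhibits the kinase mTOR in both of its complexes, and the labels give its dose in the drinking water as 0.75 µM per g of body weight, whereas the study's methods state another concentration. The Terc deletion, the removal of the ovaries and the graft site were common to both groups, so an intact ovary and a host with telomerase were not part of the comparison. The labels do not say whether a library came from 1 graft or from several, and p-values measure the spread between these libraries.

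Notch receptors are single-pass membrane proteins that are activated by Jagged or Delta-like ligands on a neighbouring cell. Binding lets ADAM proteases and gamma-secretase cut the receptor, and the released intracellular part enters the nucleus, joins RBPJ and Mastermind-like coactivators and turns on genes of the Hes and Hey families. In the ovary, Jagged ligands of germ cells and Notch2 of pregranulosa cells take part in breaking germ cell cysts into primordial follicles, while Notch1, Notch4 and Dll4 are best known from endothelial cells and Notch3 from the mural cells of small arteries.

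Libraries held 19130209 to 23029089 counts, so that 3 counts corresponded to 0.127 to 0.161 CPM (counts relative to library size, scaled with TMM factors). The INK128 libraries were close to each other, with 1% of the 11758 genes of mean CPM above 10 more than 2-fold apart, against 13.8% between the controls. Summed oocyte markers stood at 1200 and 881 CPM with INK128, at 874 CPM in the first control (replicate 1) and at only 64 CPM in Control replicate 3. Control replicate 1 had the lowest sums of theca and steroidogenic markers (929 CPM, against 4053 to 10850 CPM in the others) and of mural and smooth muscle markers (825 CPM, against 1989 to 5247 CPM). It also held 1021 counts over 4 Y-linked genes, against 0 to 2 in the other libraries, which goes against the female gonads and female hosts that the study's methods name. Granulosa markers were abundant in every library (4843 to 10980 CPM). Kidney markers came to 96.6 and 175 CPM with INK128 and to 772 and 1617 CPM in the controls. In these bulk libraries, fewer cells of a type and less RNA per cell cannot be told apart.

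The groups did not overlap in 3 of the 10 genes, 1 higher and 2 lower with INK128, whereas both INK128 libraries lay above both controls for 30.9% of the 17631 genes with a mean CPM above 1 and below both for 35.3%. Notch1 was 3.43-fold lower with INK128 and was the only one of the 8 members tested called by edgeR in the fit of the 11758 genes above 10 CPM, which called 6.37% of them, while the fit above 1 CPM called no member. The mean of Notch2 lay 1.66-fold lower and that of Hes1 1.71-fold higher, without passing the adjusted threshold. Notch3, Notch4, Dll1, Dll4 and Hey1 had their lowest level in Control replicate 1 and their highest in Control replicate 3, with both INK128 libraries in between. Jag1 and Jag2 differed by less than 1.5-fold between the groups.

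**Figure D1:**
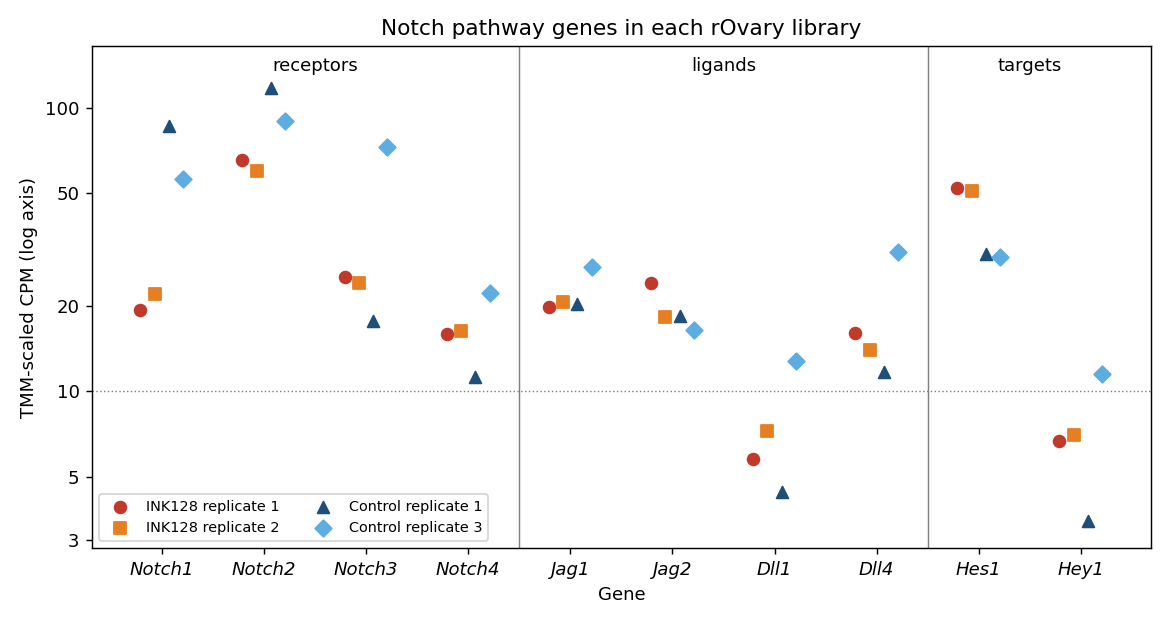
TMM-scaled CPM (log axis) of the 10 Notch genes in each of the 4 libraries, receptors on the left, ligands in the middle and targets on the right, with 1 symbol per library and a dotted line at 10 CPM. Notch1 (19.4 and 22 CPM with INK128, 85.9 and 56.2 CPM in controls), Notch2 and Hes1 separate the groups, while Notch3, Notch4, Dll1, Dll4 and Hey1 separate the 2 controls.

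Of the 8 members that averaged more than 10 CPM, 1 was called lower and 0 higher. A call needed both a change of more than 1.5-fold and an edgeR quasi-likelihood p that, adjusted by Benjamini-Hochberg across the 11758 genes, fell under 0.05. The same rule called 6.37% of all tested genes, 3.18% higher and 3.19% lower. Before adjustment, 3 of the 8 had a p under 0.05, as did 36.4% of all tested genes. Groups did not overlap for 1 member on the higher side and 2 on the lower side, while 34.5% of tested genes had both INK128 libraries above both controls and 34% had both below. In the fit of the 17631 genes with a mean CPM above 1, which also takes in Dll1 and Hey1, 0 of the 10 were called (0% of all tested genes), 3 reached an unadjusted p under 0.05 (33% of all), and DESeq2 called 2 (23.8% of all). There the median log2 fold change of the 10 genes was −0.32, against −0.09 for all tested genes, with 2 values above 0 and 8 below.

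**Figure D2:**
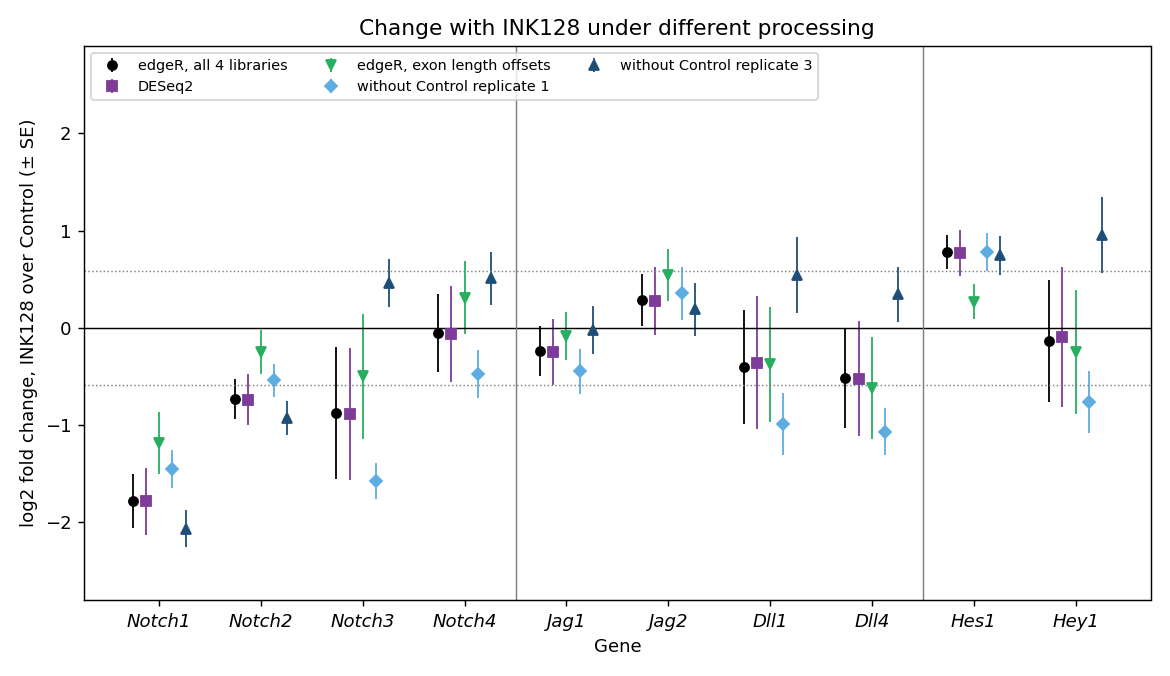
Log2 fold change (INK128 over Control) of each Notch gene with its SE, from edgeR on all 4 libraries, DESeq2, edgeR with exon length offsets, and edgeR without each control; dotted lines mark a 1.5-fold change. Notch1 stays below 0 in all 5 and Hes1 above 0, whereas Notch3, Notch4, Dll1, Dll4 and Hey1 lie on opposite sides of 0 without Control replicate 1 and without Control replicate 3.

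Notch1 encodes a receptor that many developing tissues need. The gene lies on the minus strand at chr2:26457903-26516663 (mm10, GENCODE release M21). Its level was 19.4 CPM (362 counts) and 22 CPM (479 counts) in INK128 replicates 1 and 2, 85.9 CPM (1941 counts) in Control replicate 1 and, in Control replicate 3, 56.2 CPM (1333 counts). Both treated libraries were thus well below both controls. The means were 20.7 ± 1.84 CPM with INK128 and 71.1 ± 21 CPM in controls (SD, n = 2 each), and the log2 fold change was −1.78 with an SE of 0.28 (adjusted p = 0.0464, edgeR). That adjusted p was the smallest that any gene reached in this fit, but several genes shared it. Among them, the kidney marker Lrp2 and the endothelial marker Kdr had lower unadjusted p (0.000268 and 0.000559, edgeR) than Notch1 (0.0018, edgeR). The call was lost in the fit of genes above 1 CPM (adjusted p = 0.0561, edgeR), without INK128 replicate 1 or 2 (log2 fold change −1.69 and −1.87, adjusted p = 0.371 and 0.431) and with offsets for exon length (−1.18, adjusted p = 0.118), settings in which edgeR called 0% of all tested genes. The call was kept with DESeq2 (adjusted p = 4.76e-06), which called 28.6% of all tested genes. Without Control replicate 1 or 3 the log2 fold change was −1.45 and −2.06. Those fits assume that the lone control varies like the INK128 pair. The sources do not give the strand setting of the counting, and 7.5% of the exon bases of Notch1 are shared with the opposite-strand gene 0610009E02Rik, which itself had 10.4 to 23.6 CPM.

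Notch2 encodes the receptor reported for granulosa cells and their precursors. It lies on the plus strand at chr3:98013527-98150361 (mm10). Notch2 stood at 65.2 and 59.7 CPM in INK128 replicates 1 and 2 and at 117 and 89.9 CPM in Control replicates 1 and 3. The groups did not overlap, and the controls were 1.31-fold apart. Its log2 fold change was −0.73 with an SE of 0.21 (adjusted p = 0.0825, edgeR), which did not pass the threshold, while DESeq2 called it lower (adjusted p = 0.0224; DESeq2 called 28.6% of all tested genes, 15.1% lower). In the fit above 1 CPM, DESeq2 did not call it (adjusted p = 0.0549).

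Both genes are long. Notch1 and Notch2 have 14232 and 10782 exon bases, against a median of 4468 over the tested genes, and Hes1 has 2037. With offsets that remove the trend of each library against exon length, the log2 fold change of Notch2 was −0.25 (adjusted p = 0.513, edgeR) and that of Hes1 0.27 (adjusted p = 0.378, edgeR), both short of 1.5-fold. Kidney markers also moved with the groups: 16 of the 18 were lower in both INK128 libraries than in both controls, and 17 had a log2 fold change below 0. Summed immune markers were 242 and 219 CPM with INK128 and 341 and 425 CPM in controls, and the 10 tested of 13 all had a log2 fold change below 0 (median −1.18), 7 of them without overlap between the groups. Gm42820, which shares 5% of the exon bases of Notch2 on the same strand, had 2 and 1 counts with INK128 and 82 and 154 in controls. The part of kidney RNA, immune cells and transcript length in the Notch1, Notch2 and Hes1 values was not tested.

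Notch1 and Notch2 were the receptors whose groups did not overlap, and Notch3 the one with the widest gap between the controls, so the stretch of 250 bases before the RefSeq transcription start of each is shown (RefSeq, GRCm38.p6, the build also called mm10; 8 of the 10 genes had an entry). The stretches are chr2:26503823-26504072 (minus strand), chr3:98013288-98013537 (plus strand) and chr17:32166891-32167140 (minus strand), written 5′ to 3′ in the direction of transcription, and capitals mark the GC box GGGCGG or its reverse complement CCGCCC.
Notch1: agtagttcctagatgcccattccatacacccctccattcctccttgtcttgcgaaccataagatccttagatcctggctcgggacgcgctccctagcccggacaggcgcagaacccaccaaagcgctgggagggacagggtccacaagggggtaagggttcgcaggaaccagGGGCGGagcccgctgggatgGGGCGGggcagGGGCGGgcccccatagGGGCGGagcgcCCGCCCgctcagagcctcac
Notch2: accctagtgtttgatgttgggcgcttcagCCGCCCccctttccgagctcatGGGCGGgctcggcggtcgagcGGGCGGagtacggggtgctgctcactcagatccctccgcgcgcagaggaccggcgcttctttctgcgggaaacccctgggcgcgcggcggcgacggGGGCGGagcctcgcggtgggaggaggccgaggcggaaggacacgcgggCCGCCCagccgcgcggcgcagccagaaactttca
Notch3: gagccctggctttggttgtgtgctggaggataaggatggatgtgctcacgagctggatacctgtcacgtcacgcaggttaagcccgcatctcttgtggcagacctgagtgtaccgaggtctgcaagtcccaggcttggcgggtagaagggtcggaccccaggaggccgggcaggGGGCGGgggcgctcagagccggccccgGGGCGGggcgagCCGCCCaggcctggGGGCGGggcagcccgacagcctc
The stretches of Notch1 and Notch2 hold 5 GC boxes each, the nearest ending 14 and 28 bases before the start, and that of Notch3 holds 4. GC content was 66%, 72% and 68.8%. The stretch of Notch4 (58.4% GC) holds 0. Over the 8 genes there were 9 start sites, and 5 of the 9 stretches hold a GC box, against 32.7% of 32851 RefSeq promoter stretches of the same length. The core of the RBPJ motif, TGGGAA or TTCCCA on either strand, is in 0 of the 9 and in 21.6% of all. The target genes Hes1 and Hey1 had no promoter entry, so the motif was not looked for in either. All 250 bases shown for Notch1 lie inside the GENCODE span of the gene, so GENCODE places its outermost start further upstream. The bases after the RefSeq start of Notch3 were not found in a GENCODE transcript of that gene. These matches describe the letters in this window only.

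Notch3 encodes the receptor of vascular mural cells and lies on the minus strand at chr17:32120820-32166852 (mm10). Its level was 25.3 and 24.1 CPM with INK128, 17.8 CPM in Control replicate 1 and, in Control replicate 3, 72.7 CPM. The treated libraries lay between the controls, which were 4.10-fold apart, a gap reached by 3.9% of tested genes. The log2 fold change was −0.88 with an SE of 0.68 (adjusted p = 0.386, edgeR). It was −1.57 without Control replicate 1 and 0.46 without Control replicate 3, so the direction turned with the control that was kept. Summed mural and smooth muscle markers, a list that includes Notch3, were lower in Control replicate 1 (825 CPM) than in Control replicate 3 (1989 CPM), and were highest with INK128 (5174 and 5247 CPM). Smooth muscle genes such as Acta2 (2559 and 2386 CPM with INK128, 308 and 612 CPM in controls) make up most of this sum. Of the 11 genes of the list other than Notch3, 6 were higher in both INK128 libraries than in both controls. Of all 17631 genes above 1 CPM, 5441 were. For 3 of the 11, Pdgfrb, Rgs5 and Abcc9, Control replicate 1 was lowest and Control replicate 3 highest, as for Notch3. That held for 1293 of the 17631 genes. Abcc9, for example, was at 43.4 and 39.1 CPM with INK128 and at 15.4 and 93.8 CPM in Control replicates 1 and 3. Others of the list, such as Cspg4, Kcnj8 and Mcam, did not have this order. Gm17276, which shares 6% of the exon bases of Notch3 on the opposite strand, was also highest in Control replicate 3 (186 counts, against 17 to 30). The part of mural cell number in the Notch3 values was not tested.

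Notch4, a receptor mainly of endothelial cells, lies on the plus strand at chr17:34564268-34588503 (mm10). It stood at 15.9 and 16.3 CPM with INK128, 11.2 CPM in Control replicate 1 and, highest, 22.1 CPM in Control replicate 3. Here too the treated libraries lay between the controls, and the group means were close (16.1 ± 0.31 and 16.7 ± 7.73 CPM, SD, n = 2 each). The log2 fold change was −0.05 with an adjusted p of 0.937 (edgeR); it turned to 0.31 with exon length offsets. Summed endothelial markers ranged from 892 CPM in INK128 replicate 1 to 1143 CPM in Control replicate 3, with a median log2 fold change of −0.18 over the 16 genes, but their members differed. Pecam1, Tie1, Tek and Erg, 4 of the 16, were lowest in Control replicate 1 and highest in Control replicate 3, as Notch4 was. Of the 17631 genes above 1 CPM, 1293 were. Pecam1 was at 92.5 and 99.1 CPM with INK128 and 86.2 and 159 CPM in Control replicates 1 and 3. Kdr, the main VEGF receptor of endothelium, was lower with INK128 (log2 fold change −1.54, adjusted p = 0.0464, edgeR, genes above 10 CPM). Emcn, Eng, Esam and Egfl7, 4 of the 16, lay above both controls in both INK128 libraries, and 3, Kdr among them, below. Over all genes above 1 CPM the shares were 30.9% above and 35.3% below. The part of endothelial cells in the Notch4, Dll4 and Hey1 values was not tested.

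Jag1 encodes the Jagged ligand that oocytes are known to make, and it lies on the minus strand at chr2:137081456-137116644 (mm10). Its level was 19.9 and 20.7 CPM with INK128, with 20.4 CPM in Control replicate 1 and the highest value, 27.4 CPM, in Control replicate 3. INK128 replicates 1 and 2 and Control replicate 1 were within 1 CPM of each other and the groups overlapped. Its log2 fold change was −0.24 (adjusted p = 0.526, edgeR). Control replicate 3, where Jag1 was highest, was the library with the least oocyte marker RNA: Gdf9, an oocyte growth factor, had 169 counts there and 5744 to 8453 counts in the others.

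Jag2, the second Jagged ligand, lies on the minus strand at chr12:112907819-112929776 (mm10). It was at 24.1 and 18.3 CPM with INK128 and at 18.4 and 16.4 CPM in Control replicates 1 and 3. The groups overlapped by less than 0.1 CPM. Among the 4 member ligands, only Jag2 had a log2 fold change above 0 (0.29, adjusted p = 0.465, edgeR), and it was the one of the 4 with the smallest gap between the controls (1.12-fold).

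Dll4, the Delta-like ligand of arterial and sprouting endothelium, lies on the plus strand at chr2:119325784-119335962 (mm10). It was at 16.1 and 13.9 CPM with INK128, at 11.7 CPM in Control replicate 1 and, in Control replicate 3, at 31.1 CPM. The controls were 2.66-fold apart, and the treated libraries lay between them. The log2 fold change was −0.51 (SE 0.52, adjusted p = 0.498, edgeR), and it was −1.07 without Control replicate 1 and 0.34 without Control replicate 3. Gm14207, which shares 5.6% of the exon bases of Dll4 on the opposite strand, also peaked in Control replicate 3 (152 counts, against 25 to 35).

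Dll1, a Delta-like ligand used in many developing tissues, lies on the minus strand at chr17:15367354-15376872 (mm10). Counts were 108 and 157 with INK128 and 100 and 303 in Control replicates 1 and 3, or 5.797, 7.222, 4.427 and 12.78 CPM. The controls were 2.89-fold apart. Its log2 fold change was −0.40 with an SE of 0.59 (adjusted p = 0.65, edgeR, genes above 1 CPM). It was −0.98 without Control replicate 1 and 0.54 without Control replicate 3.

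Hes1 encodes a transcriptional repressor that is the most direct readout of Notch activity in many cell types, though other pathways act on it as well. It lies on the plus strand at chr16:30064384-30067796 (mm10). Its level was 52.2 CPM (972 counts) and 50.9 CPM (1107 counts) with INK128 and 30.4 CPM (687 counts) and 29.8 CPM (706 counts) in Control replicates 1 and 3. Both groups were tight and did not overlap, and the controls were only 1.02-fold apart, a gap reached by 95.3% of tested genes. The log2 fold change was 0.78 with an SE of 0.17 (adjusted p = 0.0597, edgeR), just above the threshold, while DESeq2 called it higher (adjusted p = 0.00605; 13.6% of all tested genes were called higher). With the filter at 10 CPM in all 4 libraries, edgeR also called it (adjusted p = 0.0497; 15.6% of all tested genes were called). Leaving out any library, which leaves 1 in that group, kept the log2 fold change between 0.75 and 0.80. Exon length offsets lowered it to 0.27 (adjusted p = 0.378, edgeR).

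Hey1, a related repressor and a Notch target of endothelial cells, lies on the minus strand at chr3:8663359-8667256 (mm10). Counts were 125 and 152 with INK128, 79 in Control replicate 1 and 273 in Control replicate 3, or 6.71, 6.992, 3.497 and 11.51 CPM. The treated libraries again lay between controls that were 3.29-fold apart. Its log2 fold change was −0.13 (SE 0.63, adjusted p = 0.895, edgeR, genes above 1 CPM), and it turned to 0.96 without Control replicate 3.

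The controls differed from each other in many of the members. Control replicate 3 was the highest library for 6 of the 10 genes and Control replicate 1 the lowest for 5. For Notch3, Hey1, Dll1 and Dll4, the gap between the controls was reached by only 3.9%, 5.4%, 6.73% and 7.88% of tested genes. Summed markers of 6 lists were also lower in Control replicate 1 than in Control replicate 3: theca and steroidogenic (929 and 10850 CPM), mural and smooth muscle (825 and 1989 CPM), granulosa (4843 and 9814 CPM), kidney (772 and 1617 CPM), endothelial (964 and 1143 CPM) and immune (341 and 425 CPM). Single genes could run the other way: of the 12 granulosa genes 9 were lower in Control replicate 1, but Amh, a hormone of growing follicles, was at 435 CPM there and at 5.1 CPM in Control replicate 3, and its receptor Amhr2 at 408 and 86.1 CPM. Oocyte markers differed in the opposite sense (874 and 64 CPM). Whether any of these cell types carried the differences in Notch genes was not tested.

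**Figure D3:**
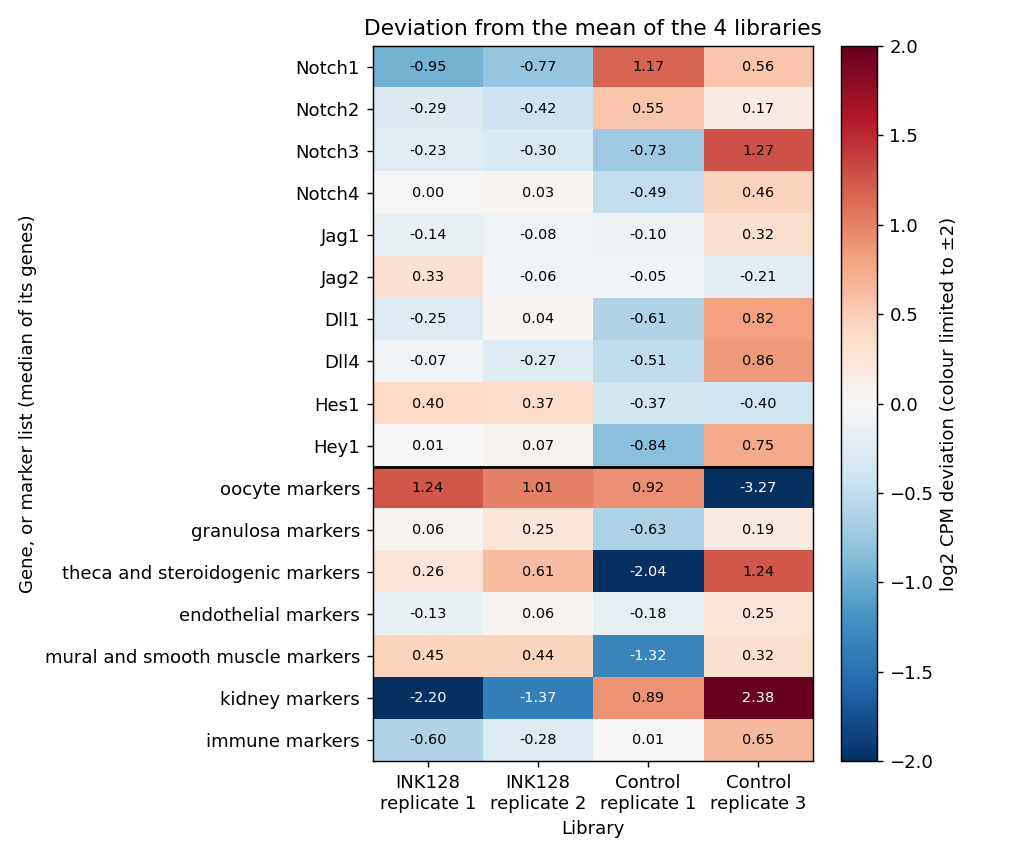
Log2 CPM of each Notch gene in each library, as the deviation from its mean over the 4 libraries, above the median deviation of the genes of each marker list (red above the mean, blue below, colour limited at 2). Notch3, Notch4, Dll1, Dll4 and Hey1 are blue in Control replicate 1 and red in Control replicate 3, as the theca list is (−2.04 and 1.24), and the oocyte list stands at −3.27 in Control replicate 3.

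Levels were compared between genes as CPM per kilobase of exon. Hes1 had the highest level in both groups, 25.3 ± 0.43 with INK128 and 14.8 ± 0.22 in controls (SD, n = 2 each), followed by Notch2 with 5.79 ± 0.36 and 9.61 ± 1.8. In the INK128 group the next were Dll4 (3.89), Jag1 (3.48), Notch3 (3.05), Jag2 (3.04), Hey1 (2.10), Notch4 (1.998), Dll1 (1.54) and Notch1 (1.46), and 7 of the 9 pairs of neighbours had ranges that did not overlap, the exceptions being Notch3 with Jag2 and Dll1 with Notch1. In the control group the order was Notch3 (5.59), Dll4 (5.55), Notch1 (4.99), Jag1 (4.10), Jag2 (2.50), Hey1 (2.30), Notch4 (2.07) and Dll1 (2.04), and the ranges separated only Hes1 from Notch2 and Jag1 from Jag2. Notch1 thus moved from rank 5 of 10 in controls to rank 10 with INK128. The order depends on the length used. The merged exons of Notch1 come to 14232 bases and its longest transcript to 9488, and with the longest transcript it ranked 3 in controls and 9 with INK128. Jag2 (6965 and 5106 bases) then moved from rank 6 to rank 3 with INK128, above Dll4, Jag1 and Notch3.

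The 4 receptors together came to 12.5 and 12.1 CPM per kilobase with INK128 and to 20.5 and 24 in Control replicates 1 and 3. Notch2 was the leading receptor in 3 of the 4 libraries, with 48.3% and 45.8% of the receptor sum with INK128 and 53.1% in Control replicate 1, while in Control replicate 3 Notch3 led with 37.4% over Notch2 with 34.7%. Notch1 made up 10.9% and 12.8% of the receptor sum with INK128 and 29.4% and 16.4% in Control replicates 1 and 3. The share of Notch4 was higher with INK128, at 15.8% and 16.8% against 6.77% and 11.4%. Its level was not: it was 1.97 and 2.03 CPM per kilobase with INK128, between the controls at 1.39 and 2.75. The sum of the ligands was 12.4 and 11.5 CPM per kilobase with INK128, 10.2 in Control replicate 1 and 18.2 in Control replicate 3, and Jag1 took between 25.9% and 34.2% of it in every library. Dll4 was the leading ligand with INK128 (33.6% and 31.4%) and in Control replicate 3 (44.4%), and Jag1 led in Control replicate 1 (34.2%, against 29.7% for Dll4). With the longest transcript as the length, Jag2 had the largest mean ligand share with INK128 (30.5%, against 29.4% for Dll4).

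**Figure D4:**
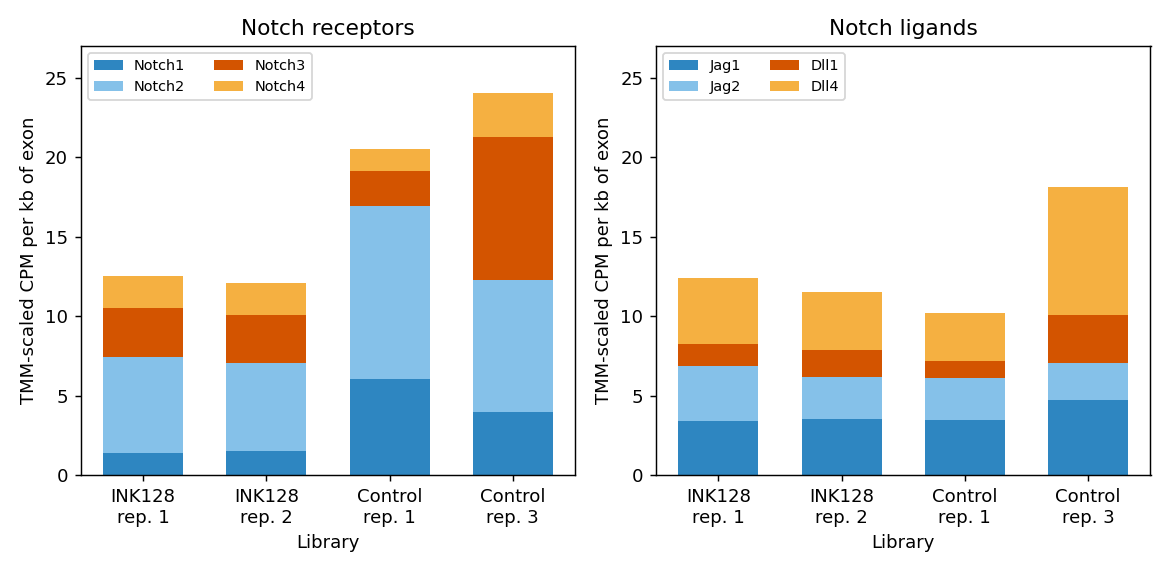
Summed TMM-scaled CPM per kilobase of exon of the 4 receptors (left) and the 4 ligands (right) in each library, with 1 colour per gene. The receptor sum is 12.5 and 12.1 with INK128 and 20.5 and 24 in controls; the ligand sum is highest in Control replicate 3 (18.2).

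The wider pathway was followed in a list of 59 other Notch pathway genes grouped by role, of which 53 had a mean CPM above 1. Of these, 0 were called by edgeR in that fit (0% of all 17631 genes), 20 reached an unadjusted p under 0.05 (33% of all genes), 6 on the higher and 14 on the lower side, and DESeq2 called 2 higher and 12 lower (23.8% of all genes, 10.2% higher and 13.6% lower). Their median log2 fold change was −0.11, against −0.09 over all tested genes, with 21 values above 0 and 32 below. In the fit of genes above 10 CPM, 3 of 49 were called, all of them lower, beside 6.37% of all tested genes. They were Spen, a corepressor that binds RBPJ (log2 fold change −1.92, adjusted p = 0.0464), Ep300, the acetyltransferase p300 of the Notch coactivator complex (−1.21, adjusted p = 0.0475), and Itch, a ubiquitin ligase that acts on Notch (−0.96, adjusted p = 0.0487, edgeR for all 3). With exon length offsets, in the fit above 1 CPM, the log2 fold change of Ep300 was −0.60 and that of Spen −1.30.

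**Figure D5:**
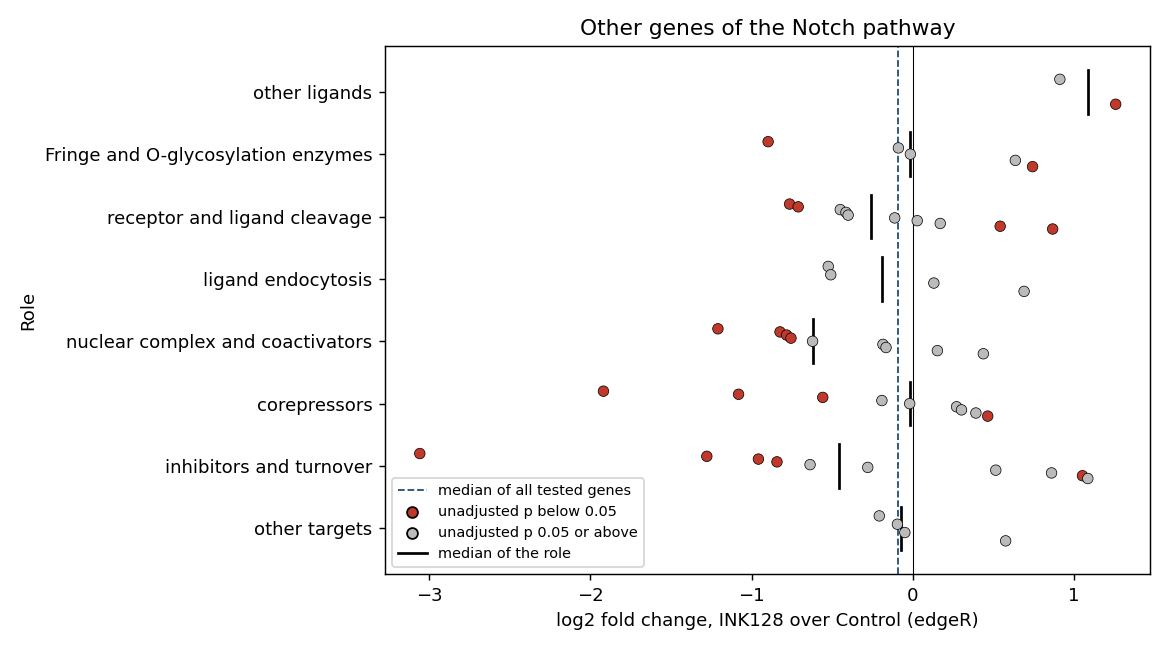
Log2 fold change (INK128 over Control, edgeR, genes above 1 CPM) of the 53 tested other genes of the Notch pathway, 1 point per gene, in rows by role, with red points for an unadjusted p below 0.05 and a black bar at the median of each role. The nuclear complex and coactivators have their median at −0.62, against −0.09 over all tested genes (dashed line).

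Genes of the nuclear complex had the lowest median among the roles, −0.62 over 9 genes, of which 7 were below 0 and 4 had an unadjusted p below 0.05, all 4 lower. Over all 17631 tested genes, 9529 were below 0 and 3431 were lower at that p. Ep300 was at 51.7 and 43.7 CPM with INK128 and at 101 and 120 CPM in Control replicates 1 and 3. Rbpj, the DNA-binding partner of all Notch receptors, was at 52.4 and 48.9 CPM with INK128 and at 88.1 and 86.2 CPM in controls, a log2 fold change of −0.78 that did not pass the threshold (adjusted p = 0.0545, edgeR, genes above 10 CPM). Snw1, another protein of this complex, shares 44.2% of its exon bases with Slirp on the opposite strand, so reads of either gene may stand in its counts.

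Inhibitors and genes of receptor turnover had a median of −0.46 over 10 genes. Dtx1, a ubiquitin ligase of the Deltex family, had the most negative value of the list (−3.06, adjusted p = 0.137, edgeR), which rested on Control replicate 1: it was at 7.78 and 10.1 CPM with INK128, 136 CPM in Control replicate 1 and, in Control replicate 3, 13.4 CPM, and the log2 fold change was −0.59 without Control replicate 1. The 9 corepressors had a median of −0.02. Spen was at 21.5 and 22.5 CPM with INK128 and at 66.3 and 100 CPM in controls, and the groups did not overlap.

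The 10 genes of receptor and ligand cleavage had a median of −0.26, with 4 values above 0 and 6 below. Psenen, the smallest subunit of gamma-secretase, had the highest log2 fold change among them, 0.87 (adjusted p = 0.0707, edgeR). It was at 103 and 93.2 CPM with INK128 and at 60.3 and 47.4 CPM in controls, and it shares 9.3% of its exon bases with U2af1l4 on the opposite strand. The 5 Fringe and O-glycosylation genes had a median of −0.02. Lfng, a glycosyltransferase that alters which ligands a receptor answers to, was at 7.73 and 8.51 CPM with INK128 and at 16.7 and 13.5 CPM in controls (log2 fold change −0.90, adjusted p = 0.118, edgeR).

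Among the remaining roles, Neurl1b, a ubiquitin ligase of ligand endocytosis, differed by 0.69 on the log2 scale (adjusted p = 0.273, edgeR), and the 4 genes of this role had a median of −0.19. Dner, an atypical ligand, was at 7.14 and 6.90 CPM with INK128 and at 2.70 and 3.16 CPM in controls (log2 fold change 1.26, adjusted p = 0.103, edgeR). Of the 8 other target genes, 4 were tested, and Hes6, with the largest change, differed by 0.58 on the log2 scale (adjusted p = 0.258, edgeR), and the median was −0.07. Heyl and Hey2, relatives of Hey1, were at 38.4 to 66.3 CPM and 25.2 to 43.8 CPM, and in both cases the INK128 libraries lay between the controls. Hes3 had 0 counts in every library, which allows at most 0.161 CPM in the shallowest, and Hes2 and Hes5 had at most 3 counts in any library. These floors cover counting error only.

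The mean profile of the 8 members above 10 CPM, centred on its mean over the 4 libraries, was −0.12 and −0.19 on the log2 scale with INK128, −0.07 in Control replicate 1 and 0.38 in Control replicate 3. Among 11701 other tested genes, the closest to it were Myo1c and Tm6sf1, with root mean square distances of 0.016 and 0.021 over the 4 libraries.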

How the data were processed

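RNA-seq read counts per gene were deposited by the authors, who used Trimmomatic for trimming, HISAT2 for alignment (mm10) and featureCounts for counting against an annotation called RefGene. Versions and the strand setting are not given in the sources used here. The counts are raw, without pooling of replicates, and groups and replicate numbers came from the labels. TMM factors (edgeR 4.0.16, R 4.3.3) were taken from the 11758 genes with a mean CPM above 10. The comparison was edgeR's quasi-likelihood test, adjusted by Benjamini-Hochberg over those genes or over the 17631 genes above 1 CPM for Dll1, Hey1 and the other pathway genes, and a call needed an adjusted p under 0.05 with more than a 1.5-fold change. Each SE was derived from the F statistic, and log2 CPM used a pseudocount of 0.5. With 2 libraries a group, an exact permutation test cannot go below p = 0.333. Alternatives were DESeq2 1.42.0, other scalings and filters, exon length offsets (lowess, span 0.3), an adjusted p below 0.1 and leaving out each library. Exon lengths and positions came from GENCODE (53447 of 54021 symbols matched), promoters from RefSeq. All members were named, and of each other role the gene with the largest change or any called. Itch, Rbpj, Snw1, Hey2, Heyl, Hes2, Hes3, Hes5 and the single marker genes were named after their values were seen. Members and lists were chosen with earlier results of these data known. Of the 3 genes with the profile closest to the members' mean, 1 is not reported here.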

Additional observations from a re-analysis of the deposited data

How the results depend on the processing

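No paired analysis was possible because the groups share only replicate number 1. Of the 8 members above 10 CPM, 1 was called with TMM (6.37% of all genes), with relative log expression size factors (6.28%), with library totals alone (7.4%) and with no filter (8.42%, all 10 members tested), 3 with DESeq2 (28.6%) or at an adjusted p below 0.1 (26.6%), 2 with the filter in all 4 libraries (15.6%), 0 with exon length offsets in edgeR (0% of all; 1 at an unadjusted p under 0.05), and 0 to 4 when 1 library was left out (0 without either INK128 library, as were 0% of all genes, 4 without Control replicate 1, 3 without Control replicate 3, where 45.7% and 42.7% of all genes were called). Of the 10 members above 1 CPM, 0 were called, against 2 with DESeq2 (23.8% of all genes), 1 with no filter (8.42%), 1 with the filter in all 4 libraries (6.19%), 3 at an adjusted p below 0.1 (21.3%) and 0 to 5 with 1 library left out (5 without Control replicate 1, 3 without Control replicate 3, beside 44.8% and 40.6% of all genes). Of the other pathway genes 0 were called, against 14 with DESeq2 (23.8% of all genes), 8 with no filter (8.42%), 3 with the filter in all 4 libraries (6.19%), 13 at an adjusted p below 0.1 (21.3%), 3 in the fit above 10 CPM (6.37%, chosen after seeing the data) and 0 to 28 with 1 library left out (20 without Control replicate 1, 28 without Control replicate 3, where 44.8% and 40.6% of all genes were called). In fits without a control, the lone control is assumed to vary like the INK128 pair. Log2 fold changes reversed without Control replicate 3 for Notch3 (0.46, against −1.57 without Control replicate 1), Notch4 (0.51 against −0.47), Dll1 (0.54 against −0.98), Dll4 (0.34 against −1.07) and Hey1 (0.955 against −0.76), and with exon length offsets for Notch4 (0.31). Over the 110 repeats of the 10 members' fold changes, 90 kept direction and side of the threshold, 3 lost a call, 11 gained one and 6 reversed. Library totals alone moved the median of all genes from −0.03 to −0.15 (log2). With the longest transcript in place of merged exons the shares of the receptors and ligands moved by more than the spread in most INK128 values. The cause of these changes was not tested.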
